A study of Homo sapiens with 34 samples.

Results

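The genes described here encode the WNT ligands, their receptors and the proteins that adjust WNT signalling at the cell surface. They were chosen by symbol alone, as every row of the expression table whose gene name was that of a WNT, Frizzled (FZD), SFRP, DKK or R-spondin (RSPO) family member, or LGR4, LGR5, LGR6, LRP5, LRP6, FRZB, WIF1, AXIN1, AXIN2, RNF43 or ZNRF3. This gave 49 of the 20255 genes in the table, namely 17 WNT ligands, 10 Frizzled receptors, 2 LRP co-receptors, 4 R-spondins, 3 LGR receptors, 5 secreted antagonists that bind WNT, 4 Dickkopf proteins and 4 feedback inhibitors. All 49 are protein-coding in GENCODE v29. Of them, 48 reached a value of 10 in 3 samples or more and were tested, and only WNT10A did not. WNT1, WNT10B and SFRP4 were not analysed here.

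RNA was sequenced from H1, a single established line of human embryonic stem cells, before and during haematopoietic differentiation without added haematopoietic cytokines. The 34 samples fall into 12 populations, with 3 independent biological replicates in each of 11 populations and 1 undifferentiated sample, which is given without a test. Unsorted populations were the undifferentiated cells (labelled as untreated), embryoid bodies (EBs) at day 0 (labelled BMP4 and hVEGF), and differentiating cells at days 2 and 4. Sorted populations were CD43- and CD43+ cells at days 6, 9 and 12, and at day 16 CD43-CD45- and CD43+/CD45+ cells, called day 16 CD43- and CD43+ cells below. Every population from day 2 on is labelled hVEGF. The protocol text has VEGF alone from day 3, and the study's methods exchange the medium with BMP4 and VEGF for one with VEGF on day 2 of attachment, so whether BMP4 was present when day 2 cells were collected is not given in the sources used here. CD43 is a sialoglycoprotein of blood cells, and CD45 is a phosphatase of most white blood cells.

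Values are GC-normalized tag counts, which were forced to 1 distribution: sorted by size they were the same in all 34 samples, with a median of 197 and a maximum of 90700. They carry little more than rank, the depth behind it is unknown, and levels were compared between populations and not between genes. Differences were tested with limma on log2(value + 1) over 19788 genes in 33 samples. A gene was called when the Benjamini-Hochberg adjusted p was below 0.05 and the fold change above 4, and "rose", "fell", "higher" and "lower" are used of called genes. This scale understates the change of genes with low values.

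SPN, which encodes CD43, followed the sort, at 2338 to 9460 in the 12 CD43+ samples and 18 to 328 in the 12 CD43- samples. Genes of other cell types moved with the sort too. The summed value of 10 mesenchymal markers was 202247 to 250050 in day 6 CD43- cells and 59694 to 156322 in day 6 CD43+ cells, and on day 16 it was 323974 to 329420 against 7753 to 16254. For 10 endothelial markers it was 37844 to 122451 against 35789 to 46349 on day 6, and 58667 to 71764 against 8248 to 11864 on day 16. The 8 endoderm markers summed to 5216 to 5924 against 291 to 687 on day 6 and 12780 to 21820 against 339 to 751 on day 16. The 4 neural markers in the table summed to 5254 to 8853 against 2665 to 3235 on day 6 and to 1052 to 1175 against 96 to 208 on day 16. The 10 blood markers summed to 34712 to 54744 in the CD43+ populations and to 841 to 6798 in the CD43- populations. Among these, PTPRC, which encodes CD45, stood at 4, 197 and 371 in the 3 day 12 CD43- samples. The 7 pluripotency markers summed to 86244 to 103654 on day 0, 22998 to 26137 on day 4 and at most 14354 from day 6 on. The part of cell composition in the differences below was not tested, and in such bulk samples fewer cells of a type and less RNA per cell cannot be told apart.

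WNT proteins are secreted lipid-modified ligands that bind Frizzled receptors together with LRP5 or LRP6, which stabilises β-catenin and switches on target genes, or act through other routes such as planar cell polarity. R-spondins bind LGR4, LGR5 and LGR6 and keep the ubiquitin ligases RNF43 and ZNRF3 from removing Frizzled receptors from the cell surface, while SFRP proteins, FRZB and WIF1 bind WNT and Dickkopf proteins bind LRP5 and LRP6. AXIN2 is both a β-catenin target and part of the complex that degrades β-catenin. AXIN1 was grouped with AXIN2, RNF43 and ZNRF3 as feedback inhibitors here because it is part of that complex, and not as a target gene. In the embryo WNT signalling is needed to form mesoderm, from which blood and vessels arise.

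**Figure D1:**
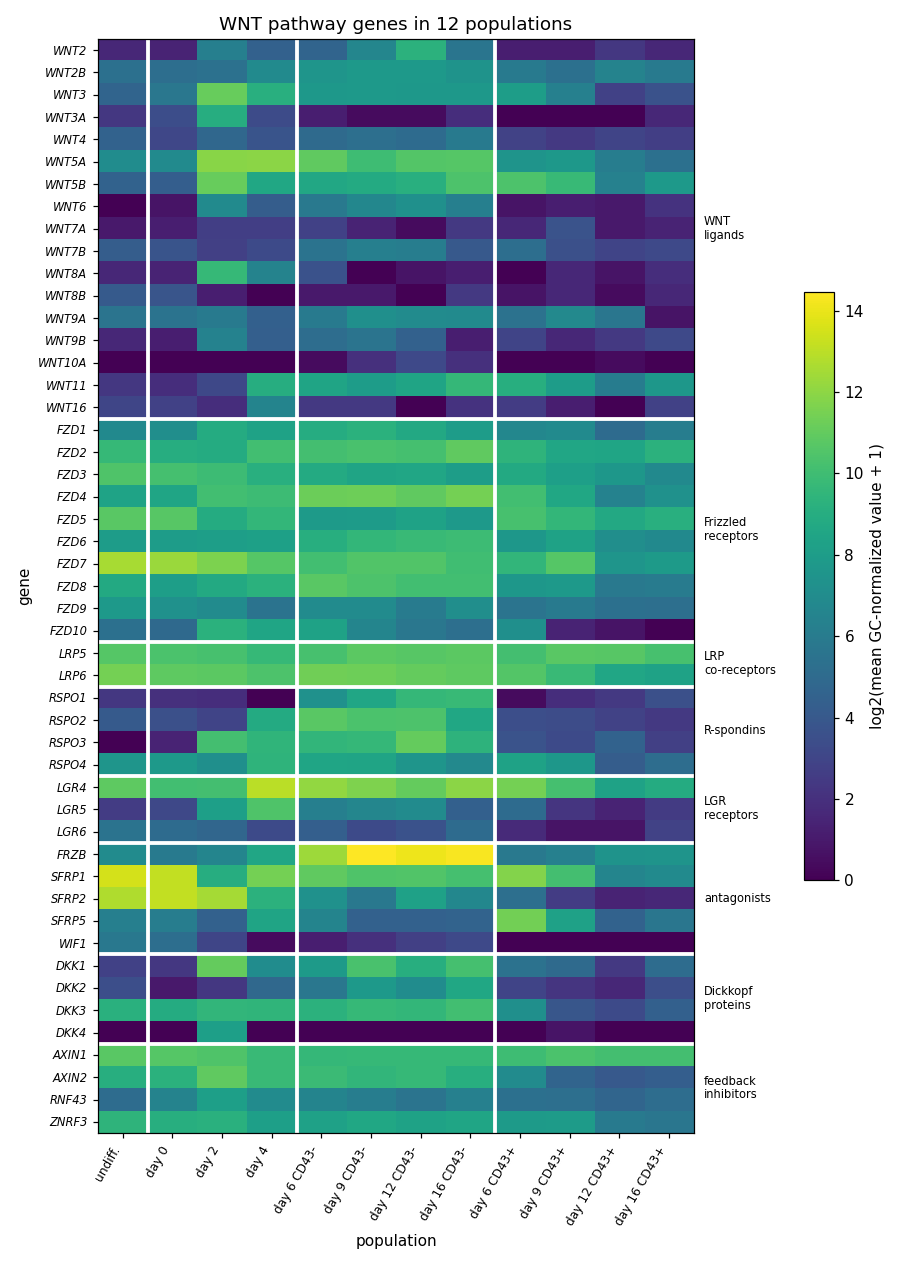
Mean GC-normalized value of each of the 49 genes (vertical axis, grouped by role) in the 12 populations (horizontal axis), as log2(mean value + 1) on the colour scale, with n = 3 samples a population and 1 undifferentiated sample. Over the 11 populations with replicates, 11 of the 48 tested genes had their highest mean on day 2 and 10 on day 0. Another 9 had it in day 16 CD43- cells and 0 in day 12 or day 16 CD43+ cells. Highest means were not counted over all genes tested.

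The first question was when WNT genes came on as EBs spread into mesodermal outgrowths. From day 0 to day 2, 17 of the 48 genes were called (35.4%), 14 higher and 3 lower, against 7.88% of all genes tested in either direction (4.4% higher, 3.48% lower). The median log2 fold change was 0.55 over the 48 genes and -0.01 over all genes tested. WNT ligands made up 9 of the 14 rises, namely WNT2, WNT3, WNT3A, WNT4, WNT5A, WNT5B, WNT6, WNT8A and WNT9B, and the others were RSPO3, LGR5, FZD10, DKK1 and DKK4.

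RSPO3, a secreted enhancer of WNT signalling (chromosome 6, 127118604 to 127197765, plus strand, GRCh38), had values of 2, 0 and 3 in the day 0 samples and 1208, 1178 and 1037 in the day 2 samples. The ranges were far apart, with a log2 fold change of 8.96 (SE 0.64, adjusted p = 1.44e-11, limma). WNT8A, a ligand of early mesoderm (chromosome 5, 138083892 to 138092365, plus strand), went from 1, 2 and 2 to 770, 784 and 886 (log2 fold change 8.28, SE 0.40, adjusted p = 4.11e-15). For WNT8A the day 2 samples stood far above every sample of any other population. WNT3, a ligand needed for gastrulation, had values of 46, 48 and 60 on day 0 and 2236, 2194 and 2174 on day 2, and its log2 fold change was 5.40 (SE 0.24, adjusted p = 5.86e-16). WNT3A went from 12, 8 and 9 to 492, 554 and 502 (5.61, SE 0.40, adjusted p = 1.3e-11), and WNT5B from 22, 20 and 14 to 1959, 2451 and 2077 (6.80, SE 0.34, adjusted p = 9.65e-15). In none of these ligands did the day 0 and day 2 samples overlap. LGR5, an R-spondin receptor, rose from 6, 7 and 10 to 243, 316 and 287 (5.05, SE 0.87, adjusted p = 4.51e-05). WNT4 was the only gene called whose day 0 and day 2 samples overlapped, at 6, 16 and 0 against 30, 12 and 41, and its log2 fold change of 2.38 lost the call without day 0 replicate 3 (1.23), day 2 replicate 1 (2.25) or day 2 replicate 3 (2.03).

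DKK1, a secreted inhibitor that binds the LRP co-receptors (chromosome 10, 52314296 to 52318042, plus strand), had values of 6, 4 and 2 on day 0 and 2095, 2209 and 1916 on day 2 (log2 fold change 8.78, SE 0.59, adjusted p = 3.47e-12). DKK4, a close relative, was listed at 0 in the day 0 and day 4 samples and at 312, 314 and 232 on day 2. The deposited values thus hold it on day 2 and, apart from a value of 1 in a pair of day 9 CD43+ samples, nowhere else. DKK4 reached 10 in the 3 day 2 samples alone, so it passed the filter only through the group where it is high. Because β-catenin acts through TCF and LEF factors, the 250 bases before the start of each gene were searched on both strands for CTTTGAA and CTTTGAT, which are forms of the core that these factors bind. Among the 33 genes with a promoter in the RefSeq table (GRCh38.p14), DKK1 was the only one that held either, and 5.94% of the 35116 promoters in the table did. The match lay 95 to 89 bases before the RefSeq start, which is not the gene start given above. It is in the plus strand window chr10:52314141-52314237, shown here because DKK1 had the second largest rise on day 2 and with the match in capitals:
DKK1 promoter window: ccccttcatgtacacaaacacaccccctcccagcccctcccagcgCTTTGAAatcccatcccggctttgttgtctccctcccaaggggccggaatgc
Such a match is a run of letters and not a binding site. Other forms of the core were not searched for, and this window also holds CTTTGTT, left in small letters.

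The 3 genes that fell on day 2 were SFRP1, WNT8B and WIF1. SFRP1, a WNT-binding antagonist, had values of 7165, 9902 and 9501 on day 0 and 560, 466 and 535 on day 2, and fell by 4.08 on the log2 scale (SE 0.29, adjusted p = 1.36e-11, limma). WNT8B went from 14, 14 and 11 to 0, 2 and 2 (-2.74, SE 0.59, adjusted p = 0.000621), and WIF1 from 32, 24 and 52 to 6, 9 and 6 (-2.16, SE 0.58, adjusted p = 0.00461). No day 2 sample of the 3 genes reached the lowest day 0 sample, although both last genes are low. WIF1 lost the call without day 0 replicate 3 (-1.87). WNT8B reached 10 in the 3 day 0 samples alone, so it passed the filter only through the group where it is high. With no filter on low values 17 genes were still called on day 2.

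None of the 4 genes grouped as feedback inhibitors passed the 4-fold threshold on day 2, although 2 were higher at an unadjusted p below 0.05 (limma). AXIN2 had values of 450, 618 and 722 on day 0 and 1829, 2066 and 1964 on day 2, without overlap (log2 fold change 1.73, SE 0.23, adjusted p = 1.13e-06). For RNF43 the values were 124, 83 and 58 against 269, 325 and 273 (1.76, SE 0.43, adjusted p = 0.00177), and for ZNRF3 they were 534, 546 and 498 against 578, 621 and 549 (0.15, SE 0.28, adjusted p = 0.745). RNF43 and ZNRF3 overlap other genes in the table, as do 9 further members (FZD4, FZD6, LGR5, LRP6, WIF1, WNT2B, WNT5A, WNT5B and WNT11), and whether reads were counted by strand is not given in the sources used here, so reads of the overlapping genes cannot be told apart.

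Among genes often used as β-catenin targets, 10 of 12 rose on day 2 and none fell (2 at an unadjusted p below 0.05, limma), with a median log2 fold change of 4.09. Of all genes tested, 4.4% rose and 3.48% fell. Per the study's methods the cells had been in medium with BMP4 and VEGF, and the part of these factors in the rises was not tested. CDX2, a homeobox gene of posterior mesoderm, went from 0, 1 and 0 to 1542, 1976 and 1738 (10.43, SE 0.55, adjusted p = 2.2e-14, limma), and SP5, a transcription factor and direct WNT target, from 116, 50 and 22 to 2551, 2460 and 2804 (5.66, SE 0.49, adjusted p = 5.44e-10). Of 21 intracellular pathway genes, LEF1, TCF7 and PYGO1 rose and TCF7L1 fell. LEF1 and TCF7, both DNA-binding partners of β-catenin, had log2 fold changes of 7.34 and 3.53, and TCF7L1, a partner with mainly repressive roles, had -2.32. Of 15 genes for ligand secretion and extracellular regulation, WLS, NOTUM, ROR2 and APCDD1 rose. WLS, which carries WNT proteins to the cell surface, went from 44, 58 and 30 to 4283, 4652 and 3932 (6.62, SE 0.35, adjusted p = 2.82e-14). Of 9 planar cell polarity genes only VANGL1 rose (2.22) and none fell (3 at an unadjusted p below 0.05), with a median of -0.48.

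**Figure D2:**
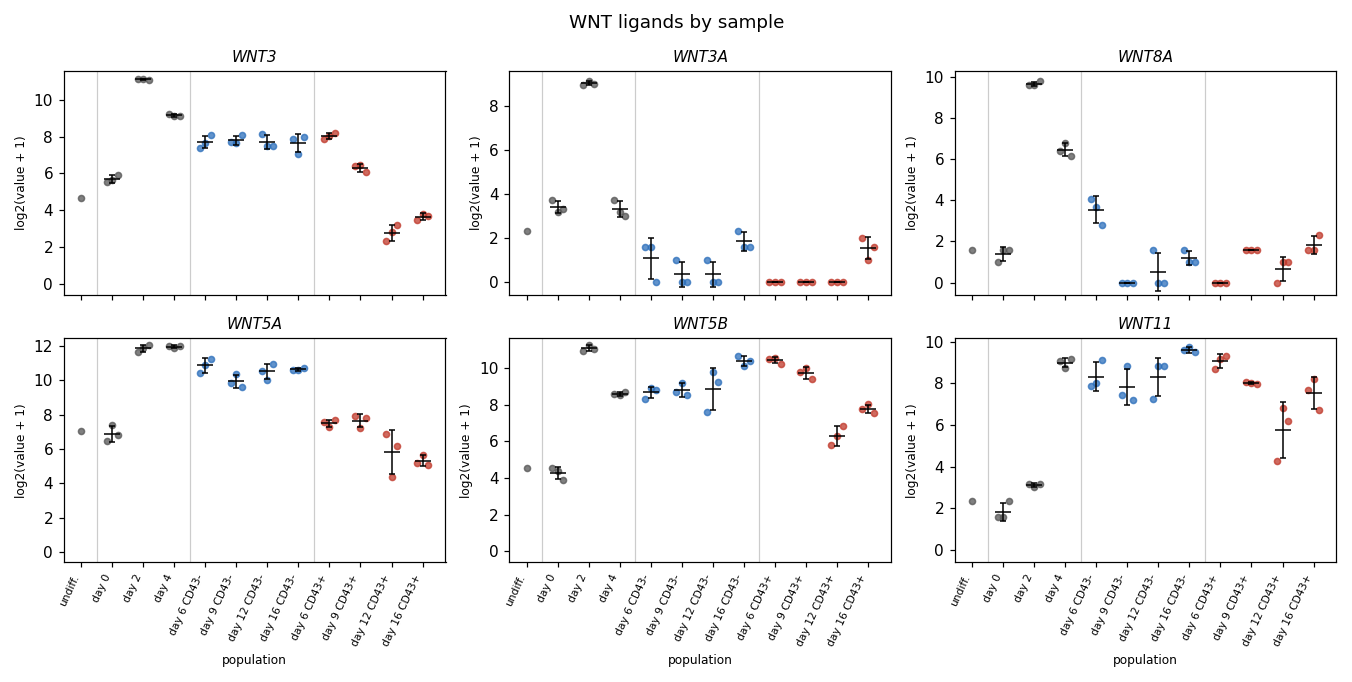
Values of 6 WNT ligands as log2(value + 1) on the vertical axis in the 12 populations on the horizontal axis, with 1 point a sample (grey unsorted, blue CD43-, red CD43+) and bars for the mean ± SD of 3 log2 values. WNT3A and WNT8A are highest in the 3 day 2 samples, WNT5A stays high on days 2 and 4 and in CD43- cells, and WNT3 and WNT5B are at CD43- levels or above in day 6 CD43+ cells and far below them by day 12.

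From day 2 to day 4 rises and falls were equal in number. Of the 48 genes, 18 were called (37.5%), 9 higher and 9 lower, against 9.5% of all genes tested (4.97% higher, 4.53% lower), and their median log2 fold change was -0.69 against -0.03 over all genes tested. The 2 comparisons share the day 2 samples, and their overlap was not counted over all genes tested. Of the 14 genes that were higher on day 2, 7 were lower on day 4 (DKK1, DKK4, WNT3A, WNT5B, WNT6, WNT8A and WNT9B), LGR5 was higher again, and RSPO3, FZD10, WNT2, WNT3, WNT4 and WNT5A were not called. WNT9B lost its call without day 4 replicate 2 (-1.72), and LGR5 lost its own without any 1 of the 6 samples (adjusted p from 0.0685 to 0.0949). With a threshold of 2-fold, 28 of the 48 genes were called, against 19.5% of all genes tested.

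Besides DKK4, which returned to 0, the largest falls were those of WNT3A and DKK1. WNT3A dropped to 12, 8 and 7 on day 4 (-5.72, SE 0.40, adjusted p = 8.51e-12, limma), which is at its day 0 level. DKK1 dropped to 138, 137 and 112 (-4.0, SE 0.59, adjusted p = 4.29e-06), which is still well above its day 0 samples. WNT8A, at 84, 110 and 71, showed the same pattern (-3.21, SE 0.40, adjusted p = 3.24e-07). SFRP2, an antagonist, had values between 5306 and 6238 on day 2 and between 541 and 680 on day 4 (-3.24, SE 0.62, adjusted p = 0.000146).

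The largest rises on day 4 were those of WNT11, RSPO2 and WNT16. WNT11, a ligand linked to cell movements and to the β-catenin-independent branch, had values of 8, 7 and 8 on day 2 and 544, 432 and 570 on day 4 (5.89, SE 0.50, adjusted p = 4.22e-10). RSPO2 went from 6, 6 and 8 to 412, 326 and 643 (5.86, SE 0.44, adjusted p = 3.12e-11), and WNT16 from 2, 4 and 2 to 97, 82 and 90 (4.67, SE 0.67, adjusted p = 3.04e-06). None of the 3 genes had a day 4 sample within its day 2 range, and for WNT16 no sample of another population exceeded 12. The antagonist SFRP5 rose from 24, 13 and 28 to 342, 278 and 412, and SFRP1 returned to 2693, 2777 and 2736, which is below its day 0 samples.

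R-spondin receptors and another R-spondin rose as well. LGR4 had values of 1046, 1164 and 1206 on day 2 and 9501, 7038 and 7038 on day 4, its highest mean of any population, with a log2 fold change of 2.77 (SE 0.28, adjusted p = 8.72e-09, limma). Equal values such as 7038 in 2 samples arise because all samples share 1 set of values. LGR5 reached 1423, 1488 and 1320 on day 4, also its highest mean (2.32, SE 0.87, adjusted p = 0.0381). RSPO4 went from 130, 151 and 150 to 638, 690 and 704 (2.23, SE 0.39, adjusted p = 4.61e-05). RSPO3 stayed at 654, 484 and 970 (-0.75, SE 0.64, adjusted p = 0.389), and RSPO1 was listed at 0 in all 3 day 4 samples. The lowest value of RSPO2, RSPO3, RSPO4, LGR4 and LGR5 in any day 4 sample was thus 326.

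None of the feedback inhibitors was called from day 2 to day 4, although all 4 were lower at an unadjusted p below 0.05 (limma). AXIN2 had values of 994, 866 and 864 on day 4 (-1.11, SE 0.23, adjusted p = 0.000416), RNF43 of 128, 105 and 136 (-1.23, adjusted p = 0.0245) and ZNRF3 of 265, 316 and 283 (-1.02, adjusted p = 0.00601). All 3 genes lay below their day 2 samples without reaching the 4-fold threshold. Of the 12 β-catenin targets 1 rose (TNFRSF19, 3.67) and 2 fell, CDX1 (-3.27) and SP5, while 4.97% of all genes tested rose and 4.53% fell. LEF1 rose again (2.05) and TCF7 fell (-2.10), while SOST, a secreted LRP inhibitor, rose (6.23) and NOTUM, an enzyme that inactivates WNT, fell (-2.67). No planar cell polarity gene and no Frizzled receptor was called by limma, although 3 of each direction among the 10 Frizzled receptors, and 2 higher and 1 lower of the 9 polarity genes, had an unadjusted p below 0.05.

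**Figure D3:**
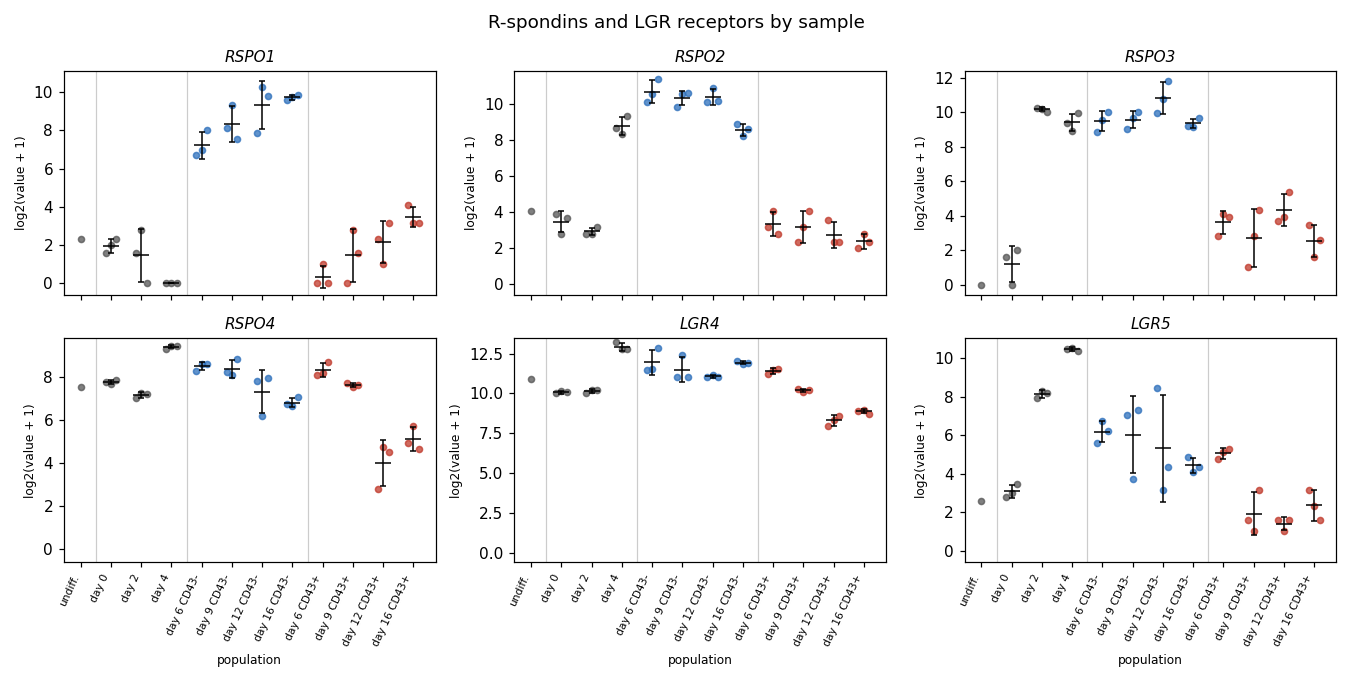
Values of the 4 R-spondins, LGR4 and LGR5 as log2(value + 1) on the vertical axis in the 12 populations, with 1 point a sample (grey unsorted, blue CD43-, red CD43+) and bars for the mean ± SD of 3 log2 values. RSPO1, RSPO2 and RSPO3 are high in all CD43- samples and at most at a deposited value of 40 in all CD43+ samples. RSPO4 and LGR4 come down later in CD43+ cells. LGR5 has dropped by day 6 on both sides of the sort, to at most 38 in CD43+ and 104 in CD43- samples.

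The next question was which WNT genes were kept when CD43+ blood cells first appeared. Day 6 CD43- cells differed from day 4 cells in 9 of the 48 genes (18.75%), 3 higher and 6 lower, against 7.71% of all genes tested (4.94% higher, 2.77% lower). Day 6 CD43+ cells differed in 14 (29.2%), 1 higher and 13 lower, against 14.5% (6.8% higher, 7.73% lower). These comparisons share the day 4 samples. Day 4 cells were unsorted and day 6 cells were sorted by CD43, so the day and the sort cannot be told apart here. With a threshold of 2-fold, 17 and 28 were called, against 21.6% and 29.9%. Their median log2 fold changes were 0.05 and -1.15 over the 48 genes, and -0.08 and 0.03 over all genes tested.

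In CD43- cells the rises were those of RSPO1, FRZB and WNT7B. RSPO1 had values of 103, 123 and 258 in day 6 CD43- cells after being listed at 0 on day 4. FRZB, an SFRP family antagonist (chromosome 2, 182833275 to 182867162, minus strand), went from 325, 322 and 490 to 3304, 3063 and 9499 (3.62, SE 0.40, adjusted p = 6.67e-08, limma). WNT7B, at 6, 9 and 10 against 32, 54 and 48, had a log2 fold change of 2.28 (SE 0.72, adjusted p = 0.0111). For each of the 3 genes every day 6 CD43- sample exceeded every day 4 sample. The falls were those of LGR5 (to 48, 104 and 73, -4.28, SE 0.87, adjusted p = 0.000263), WNT16 (to 3, 6 and 4, -4.12), WNT8A (to 16, 12 and 6, -2.93), WNT3A, SFRP2 and SFRP5. Replicate 3 of the day 6 CD43- cells had the highest FRZB value of the 3, and its endothelial markers summed to 37844 against 122451 and 90052 in the other two. Without it FRZB was still called, while SFRP2 (-1.80) and WNT3A (-1.71) were not, and SFRP5 lost its call without day 4 replicate 3 (-1.91), day 6 CD43- replicate 1 (-1.76) or replicate 2 (-1.92).

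In CD43+ cells the only rise was that of SFRP5, a WNT-binding antagonist (chromosome 10, 97766751 to 97771952, minus strand). Its values were 342, 278 and 412 on day 4 and 2616, 2486 and 2865 in day 6 CD43+ cells (2.96, SE 0.50, adjusted p = 1.82e-05, limma). No sample of another population came near these values, since the next highest value was 412. The largest falls were those of WNT8A, which was listed at 0 in all day 6 CD43+ samples, RSPO3 and RSPO2. RSPO3 stood at 654, 484 and 970 on day 4 and at 6, 16 and 14 in day 6 CD43+ cells (-5.80, SE 0.64, adjusted p = 3.01e-08). In day 6 CD43- cells it was at 463, 742 and 1036. RSPO2 stood at 412, 326 and 643 on day 4 and at 8, 16 and 6 in day 6 CD43+ cells (-5.44, SE 0.44, adjusted p = 1.26e-10). LGR5, WNT5A, WNT16, SFRP2, WNT6, WNT3A, WNT2, AXIN2, FRZB and DKK3 also fell. AXIN2 went to 119, 109 and 151 (-2.85, SE 0.23, adjusted p = 1.46e-10). Among other pathway genes, 6 of 12 β-catenin targets fell in day 6 CD43+ cells and 2 in CD43- cells. Of 15 secretion and extracellular genes, 6 fell in CD43+ cells and 1 in CD43- cells. The shares of all genes tested that fell were 7.73% in CD43+ cells and 2.77% in CD43- cells.

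CD43+ and CD43- cells of the same day were then compared. On day 6 the calls numbered 18 of the 48 genes (37.5%), with 2 higher and 16 lower in CD43+ cells, against 12.5% of all genes tested (4.68% higher, 7.85% lower). On day 9 there were 24 (50.0%), 2 higher and 22 lower, against 21.5% (8.65% and 12.8%). On day 12 there were 31 (64.6%), 0 higher and 31 lower, against 26.2% (11.8% and 14.4%), and on day 16 there were 30 (62.5%), 1 higher and 29 lower, against 25.8% (12.2% and 13.6%). The median log2 fold change over the 48 genes was -1.08, -1.66, -2.73 and -2.75 on days 6, 9, 12 and 16, and over all genes tested it was 0.14, 0.24, 0.22 and 0.14. On day 12 the count of 0 higher genes by limma compares with 2 higher at an unadjusted p below 0.05, and AXIN1 stood at 0.44 (adjusted p = 0.000409). Median-of-ratios scaling moved the median of all genes tested by -0.14 on day 6 and by -0.21 on day 9, and with it 19 genes were called on day 6 and 24 on day 9.

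In all, 14 genes were lower in CD43+ cells on all 4 days: the ligands WNT2, WNT4, WNT5A and WNT6, the receptor FZD8, RSPO1, RSPO2, RSPO3, LGR6, FRZB, DKK1, DKK2, DKK3 and AXIN2. Another 14 were lower on days 12 and 16 but not called on day 6, namely FZD4, FZD6, FZD7, FZD10, LRP6, LGR4, LGR5, SFRP1, SFRP2, WIF1, WNT3, WNT5B, WNT11 and ZNRF3. In contrast, 10 genes were called on no day, and 4 were higher in CD43+ cells on at least 1 day. The 10 include the co-receptor LRP5, AXIN1 and RNF43. They also include DKK4, WNT3A, WNT8B and WNT16, which were listed at 10 at most in every sorted sample. Such counts over several days were not made for all genes tested, so they cannot be set against a background share. Some calls near the threshold rested on single samples. On day 6, DKK3 lost its call (-2.06) without CD43- replicate 1 (-2.0) or 2 (-1.97) or CD43+ replicate 2 (-1.94), DKK1 without CD43- replicate 2 (-1.96), FZD1 without CD43- replicate 1 (-1.91) and WNT4 without CD43+ replicate 2 (-1.63). WNT4 also lost its day 12 call (-2.19) without CD43+ replicate 3 (-1.92), and WNT11 lost its day 12 call (-2.56) without CD43+ replicate 1 (-1.81) and its day 16 call (-2.08) without CD43+ replicate 3 (-1.67).

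Of the members, RSPO2 was lower by the most in CD43+ cells on days 6 and 12, and FRZB on days 9 and 16. RSPO2 had values of 1102, 1505 and 2664 in day 6 CD43- cells and 8, 16 and 6 in day 6 CD43+ cells (log2 fold change -7.33, SE 0.44, adjusted p = 5.03e-13, limma). On days 9, 12 and 16 its CD43- samples ranged from 928 to 1550, from 1125 to 1894 and from 298 to 471, and no CD43+ sample exceeded 16, with log2 fold changes of -7.14, -7.65 and -6.20. RSPO3 ranged in CD43- cells between 463 and 1036 on day 6, between 974 and 3576 on day 12 and between 571 and 814 on day 16, and no CD43+ sample exceeded 40, with log2 fold changes of -5.87, -6.84, -6.51 and -6.80 on the 4 days. RSPO1 (chromosome 1, 37611350 to 37634923, minus strand) stood at 767, 862 and 926 in day 16 CD43- cells and at 16, 8 and 8 in CD43+ cells, and its 4 log2 fold changes were -6.89, -6.87, -7.15 and -6.26. All 3 genes thus lay apart in every sample on every day. RSPO4 behaved otherwise, with values of 311, 391 and 387 in CD43- and 276, 288 and 416 in CD43+ cells on day 6 (-0.17, SE 0.39, adjusted p = 0.749), and it was lower only on day 12, at 6, 26 and 22 against 226, 72 and 251 (-3.30, SE 0.39, adjusted p = 2.54e-08). On day 16 it stood at 30, 52 and 24 against 105, 99 and 133 (-1.70, adjusted p = 0.000374).

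LGR4 and LGR5 were first called lower in CD43+ cells on days 12 and 9, and LGR6, the third R-spondin receptor, on day 6. LGR6 was at 4, 3 and 0 in CD43+ against 12, 12 and 35 in CD43- cells on day 6 (-2.75, SE 0.74, adjusted p = 0.00291, limma). LGR4 had values of 2380, 2828 and 3000 in day 6 CD43+ cells and of 2828, 2982 and 7338 in day 6 CD43- cells, which overlapped (-0.54, SE 0.28, adjusted p = 0.112, limma). By day 12 it was at 246, 328 and 389 against 2050, 2330 and 2069 (-2.76, SE 0.28, adjusted p = 1.6e-09) and on day 16 at 484, 507 and 424 against 4196, 3658 and 3862 (-3.05). LGR5 was at 26, 34 and 38 against 48, 104 and 73 on day 6 (-1.12, SE 0.87, adjusted p = 0.298), and it was lower on day 9, at 2, 1 and 8 against 133, 12 and 156 (-4.10, adjusted p = 0.000183). On day 12 its CD43- samples stood far apart from one another, at 352, 8 and 19, against 2, 1 and 2 (-3.93, adjusted p = 0.000272). Its day 16 call, at 8, 4 and 2 against 28, 16 and 19 (-2.06, adjusted p = 0.0389), was lost without any of 5 of the 6 samples, the exception being CD43+ replicate 1 (adjusted p from 0.0522 to 0.137).

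Of the secreted antagonists, FRZB and SFRP5 moved in opposite directions on day 6. FRZB was at 3304, 3063 and 9499 in CD43- and 68, 50 and 53 in CD43+ cells (-6.32, SE 0.40, adjusted p = 1.31e-12, limma), and on day 9 at 22842, 29026 and 15868 against 34, 83 and 115 (-8.29, SE 0.40, adjusted p = 1.43e-15). It stayed high in CD43- cells, at 14016 to 18772 on day 12 and at 20424 in all 3 day 16 samples, with log2 fold changes of -6.72 and -6.90. SFRP5 was at 54, 68 and 146 in CD43- and 2616, 2486 and 2865 in CD43+ cells on day 6 (5.01, SE 0.50, adjusted p = 5.02e-09). Its day 9 values were 20, 25 and 20 against 328, 288 and 294 (3.75, SE 0.50, adjusted p = 2.72e-07), and it was not called on days 12 and 16. SFRP1 was at 2232, 2088 and 1494 in CD43- and 3380, 3490 and 3788 in CD43+ cells on day 6, without overlap but under 4-fold (0.89, SE 0.29, adjusted p = 0.0121), and on day 12 it was lower in CD43+ cells, at 47, 134 and 102 against 2232, 850 and 1380 (-3.98). SFRP2 stood at 1, 0 and 4 against 506, 164 and 240 on day 12 (-6.98, SE 0.62, adjusted p = 1.29e-10). WIF1 was listed at 0 in all 12 CD43+ samples and at 14 at most in the CD43- samples, and its day 12 call was lost without CD43- replicate 1 (-1.29).

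Of the 4 Dickkopf genes, 3 were lower in CD43+ cells on every day. DKK3, a divergent family member, had values of 680, 710 and 495 in CD43- and 172, 124 and 151 in CD43+ cells on day 6 (-2.06, SE 0.47, adjusted p = 0.000675, limma) and of 1073, 1087 and 1082 against 18, 18 and 26 on day 16 (-5.66, SE 0.47, adjusted p = 4.26e-11). DKK1 was at 248, 344 and 107 against 50, 50 and 28 on day 6 (-2.31) and at 1466, 878 and 1116 against 34, 36 and 30 on day 16 (-5.04). On day 9 its CD43- replicate 2 stood apart, at 346 against 1536 and 1896, and the difference was -5.27 with all samples. DKK2 reached 580, 163 and 434 in day 16 CD43- cells against 6, 14 and 11 (-5.00). No CD43+ sample of these 3 genes reached the lowest CD43- sample of its day.

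**Figure D4:**
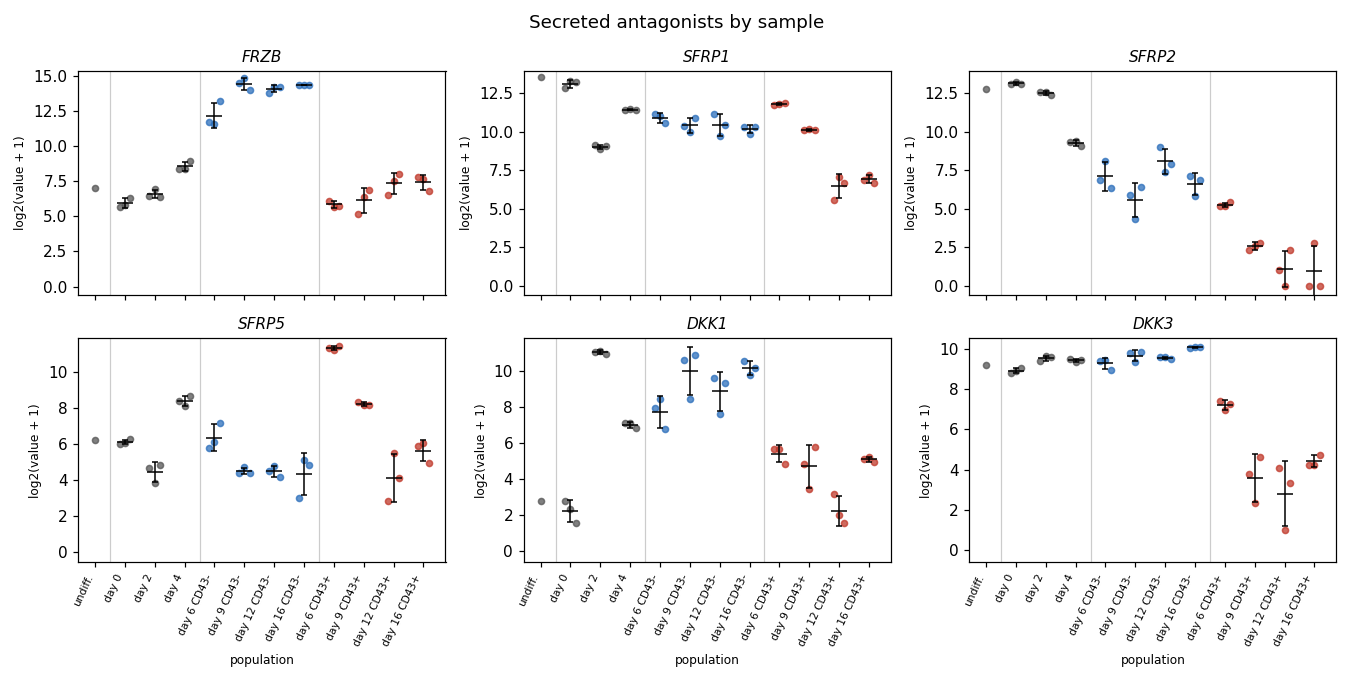
Values of 4 secreted WNT-binding antagonists and 2 Dickkopf genes as log2(value + 1) on the vertical axis in the 12 populations, with 1 point a sample (grey unsorted, blue CD43-, red CD43+) and bars for the mean ± SD of 3 log2 values. FRZB climbs in CD43- cells to between 14016 and 29026 from day 9 on, SFRP5 peaks in day 6 CD43+ cells, and DKK3 is level until day 4 and then low in CD43+ cells from day 9 on.

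Among the ligands, WNT5A, WNT2, WNT4 and WNT6 were lower in CD43+ cells on every day. WNT5A, a ligand best known for β-catenin-independent signalling, was at 1388, 1945 and 2480 in CD43- and 188, 152 and 203 in CD43+ cells on day 6 (-3.38, SE 0.38, adjusted p = 3.25e-08, limma) and at 1535, 1570 and 1709 against 36, 50 and 32 on day 16 (-5.34, SE 0.38, adjusted p = 1.45e-12). WNT2, important in heart, lung and vessel development, was at 19, 40 and 13 against 1, 2 and 1 on day 6 (-3.30) and at 752, 560 and 570 against 3, 6 and 3 on day 12 (-7.01, SE 0.50, adjusted p = 1.83e-12). For these ligands no CD43+ sample of the 2 named days lay within the CD43- range. WNT7A and WNT9B were the only ligands higher in CD43+ cells on any day, and both are low. WNT7A was at 12, 8 and 16 against 0, 1 and 4 on day 9 (2.55, adjusted p = 0.00128), a call lost without CD43- replicate 1 (1.99). WNT9B was at 8, 8 and 8 against 1, 0 and 3 on day 16 (2.17, adjusted p = 0.00173), a call lost without CD43- replicate 2 (1.67), although on day 9 it was lower in CD43+ cells, at 1, 2 and 3 against 58, 26 and 55 (-3.95, adjusted p = 1.19e-06).

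Frizzled receptors fell into groups by time. FZD8 (chromosome 10, 35638249 to 35642278, minus strand) was lower in CD43+ cells on all days, at 245, 176 and 184 against 1580, 1293 and 2262 on day 6 (-3.06, SE 0.22, adjusted p = 2.22e-11, limma) and at 82, 46 and 66 against 1084, 1140 and 1048 on day 16 (-4.09). FZD1 was lower on days 6, 9 and 12 (-2.17, -2.26 and -3.67) and, at -1.96, under 4-fold on day 16. FZD4 and FZD10 were lower from day 9 on and FZD6 and FZD7 from day 12 on. The day 16 call of FZD7 (-2.27) was lost without CD43+ replicate 3 (-1.91). FZD5 (chromosome 2, 207762586 to 207769563, minus strand) stood alone in being higher, at 1325, 1312 and 1092 in CD43+ and 221, 263 and 212 in CD43- cells on day 6 (2.42, SE 0.17, adjusted p = 1.03e-11), and at 1.61, 0.35 and 1.30 on the later days it was under 4-fold. FZD2, FZD3 and FZD9 were called on no day, with log2 fold changes from -1.90 to -0.09.

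The co-receptors parted from each other. LRP5 was at 1180, 1022 and 1148 in CD43+ and 1075, 1282 and 1314 in CD43- cells on day 6 (-0.13, SE 0.14, adjusted p = 0.454, limma) and was called in none of the 11 comparisons. LRP6 was at 1478, 1505 and 1645 against 2920, 2512 and 2220 on day 6 (-0.72, SE 0.12, adjusted p = 2.66e-05), at 314, 459 and 369 against 2340, 2178 and 1894 on day 12 (-2.50, SE 0.12, adjusted p = 1.16e-15) and at 320, 360 and 282 against 1979, 1734 and 1884 on day 16 (-2.54). Thus the LRP6 samples did not overlap on any of these days. Those of LRP5 overlapped on days 6, 9 and 12 and lay apart on day 16 (-0.56, adjusted p = 0.000782, limma).

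AXIN2, on chromosome 17 (65528563 to 65561647, minus strand), was the feedback inhibitor with the largest difference. Its CD43+ values were 119, 109 and 151 on day 6, 20, 20 and 34 on day 9, 20, 14 and 13 on day 12 and 14, 20 and 24 on day 16. The CD43- values were 739, 758 and 1304, then 738, 854 and 593, then 754, 921 and 802, and last 598, 500 and 519. Groups lay apart on each day, with log2 fold changes of -2.84, -4.86, -5.65 and -4.76 (SE 0.23, highest adjusted p = 1.45e-10, limma). ZNRF3 was at 222, 232 and 241 against 250, 348 and 322 on day 6 (-0.39, SE 0.28, adjusted p = 0.265) and at 69, 32 and 48 against 386, 360 and 322 on day 16 (-2.88, SE 0.28, adjusted p = 1.12e-09), and its day 12 call (-2.41) was lost without CD43+ replicate 1 (-1.98). RNF43 was called on no day, at 41, 45 and 32 against 68, 108 and 97 on day 6 (-1.18, adjusted p = 0.023) and at 22, 38 and 46 against 88, 72 and 73 on day 16 (-1.17, adjusted p = 0.0173). AXIN1, part of the same complex as AXIN2, stood at 0.36, 0.71, 0.44 and 0.46 on the 4 days, all under 4-fold, although its samples lay apart on each day.

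**Figure D5:**
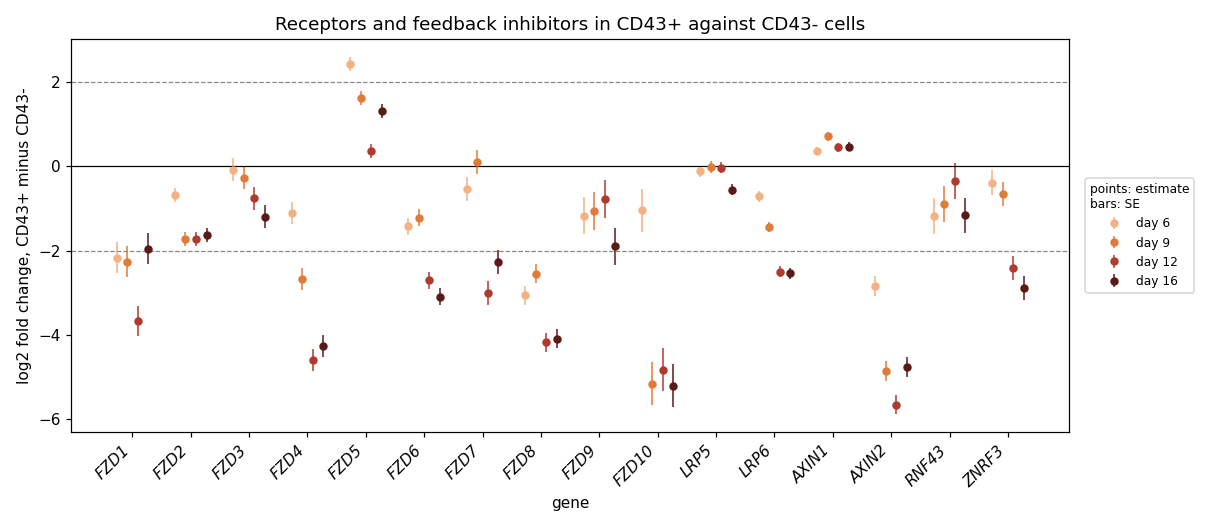
Log2 fold change of CD43+ against CD43- cells (vertical axis, points with SE bars from limma, 3 samples against 3) on days 6, 9, 12 and 16 for the Frizzled receptors, co-receptors and feedback inhibitors (horizontal axis), with dashed lines at the 4-fold threshold. FZD5 is above the upper line on day 6 only, and FZD8 and AXIN2 are below the lower line on all 4 days. LRP5 and AXIN1 stay between the lines, with AXIN1 above 0 on each day. The day 16 point of FZD10 depends on the pseudocount because its CD43+ samples are listed at 0.

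The other pathway lists gave the following counts between CD43+ and CD43- cells. Of all genes tested, 12.5%, 21.5%, 26.2% and 25.8% were called on days 6, 9, 12 and 16 in either direction. The shares called lower were 7.85%, 12.8%, 14.4% and 13.6%. Of 15 secretion and extracellular genes, 4, 7, 10 and 9 were lower on days 6, 9, 12 and 16 and none was higher (2, 1, 0 and 0 at an unadjusted p below 0.05, limma). Among them GPC3, a cell surface proteoglycan that binds WNT, was at 52, 66 and 108 against 814, 1654 and 1502 on day 6 (-4.12, SE 0.32, adjusted p = 5.2e-11, limma), and WLS was at 376, 518 and 638 against 3932, 4952 and 5306 (-3.23, SE 0.35, adjusted p = 2.27e-08). Both genes lay apart in all samples, and on day 16 they were at -7.59 and -4.84. Of 21 intracellular genes, 3, 5, 6 and 5 were lower and none was higher (2, 0, 3 and 4 at an unadjusted p below 0.05). These are 14.3%, 23.8%, 28.6% and 23.8%, near the shares of all genes called in either direction and above those called lower. LEF1 was not called on day 6 or 9 (-0.47 and -0.05) and was lower on day 12, at 14, 24 and 27 against 225, 418 and 284 (-3.78). Of 12 β-catenin targets, 4, 5, 8 and 6 were lower, and only MYC was higher, on day 6, at 5870, 5010 and 5614 against 709, 1290 and 1174 (2.42, SE 0.25, adjusted p = 9.23e-09). MYC, a growth regulator with many inputs besides WNT, was among the 8 lower genes on day 12. The shares of the targets called in either direction were 41.7%, 41.7%, 66.7% and 50.0%. Of 9 planar cell polarity genes, 2, 3, 4 and 2 were lower and none was higher (2, 3, 0 and 0 at an unadjusted p below 0.05), with medians of 0.11, 0.00, -1.36 and -0.96. The shares called were 22.2%, 33.3%, 44.4% and 22.2%, and the day 16 share is under that of all genes called in either direction.

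On each side of the sort, day 16 was compared with day 6. Day 16 cells were sorted by CD45 as well as CD43 and day 6 cells by CD43 alone, so the day and the sort cannot be told apart here. In CD43- cells 10 of the 48 genes were called (20.8%), 5 higher and 5 lower, against 13.2% of all genes tested (6.91% higher, 6.26% lower), and the median log2 fold change was -0.01 against -0.05 over all genes tested. DKK2 (2.89, SE 0.74, adjusted p = 0.00182, limma), RSPO1 (2.51, SE 0.70, adjusted p = 0.00347) and DKK1 (2.43, SE 0.59, adjusted p = 0.000988) had the largest rises, with WIF1 and FRZB. WNT9B, FZD10 and WNT8A had the largest falls, with RSPO2 and SFRP5. WNT9B went from 17, 66 and 20 to 1, 0 and 3 (-3.88, SE 0.58, adjusted p = 2.77e-06) and FZD10 from 413, 336 and 211 to 32, 26 and 55 (-3.07, SE 0.51, adjusted p = 1.35e-05). Only 6 genes were called without day 6 CD43- replicate 3, when DKK1 (1.95), RSPO2 (-1.76), SFRP5 (-1.62) and WIF1 (1.94) lost their calls. WIF1 also lost its call without day 6 CD43- replicate 1 (1.94), FRZB (2.16) without day 6 CD43- replicate 1 (1.92) or 2 (1.87), RSPO2 without day 16 CD43- replicate 2 (-1.93) and SFRP5 without day 16 CD43- replicate 1 (-1.37).

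In CD43+ cells 18 of the 48 genes were called between day 6 and day 16 (37.5%), 1 higher and 17 lower, against 21.3% of all genes tested (10.5% higher, 10.7% lower), and the median log2 fold change was -0.88 against -0.15. Median-of-ratios scaling moved the median of all genes tested by 0.15 here and left the count at 18. RSPO1 rose, from 0, 1 and 0 to 16, 8 and 8, which is a low level. The largest falls were those of FZD10, SFRP5 and SFRP1. FZD10 went from 156, 144 and 147 to a listed 0 in all 3 samples. SFRP5 went from 2616, 2486 and 2865 to 58, 65 and 30 (-5.75, SE 0.50, adjusted p = 9.98e-11, limma), and SFRP1 from 3380, 3490 and 3788 to 117, 144 and 100 (-4.89, SE 0.29, adjusted p = 6.23e-14). No day 16 sample of these genes came near a day 6 sample. WNT7B (-2.35) lost its call without day 16 CD43+ replicate 2 (-1.73), as did ZNRF3 (-2.27 and -1.99).

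Whether CD43+ cells differed from CD43- cells by another amount on day 16 than on day 6 was tested as an interaction of day and population. The added CD45 sort on day 16 cannot be told apart from the day in this test. It was called for 16 of the 48 genes (33.3%), 14 with a lower and 2 with a higher CD43+ to CD43- difference on day 16, against 19.2% of all genes tested (9.69% lower, 9.5% higher), and the median was -1.07 against -0.04. With a threshold of 2-fold 25 were called, against 33.3%. WNT9A (chromosome 1, 227918656 to 227947898, minus strand) changed most. It was at 22, 53 and 52 in CD43+ and 49, 74 and 54 in CD43- cells on day 6, and at 0, 0 and 2 against 103, 142 and 117 on day 16, a change of -5.84 (SE 0.61, adjusted p = 1.32e-08, limma). WNT5B was above its CD43- level on day 6, at 1459, 1477 and 1200 against 312, 473 and 445, and below it on day 16, at 213, 256 and 184 against 1618, 1104 and 1323 (-4.38, SE 0.48, adjusted p = 3.61e-08). For both genes all CD43+ samples lay below all CD43- samples on day 16.

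WNT3 was at 232, 260 and 288 in CD43+ and 168, 196 and 271 in CD43- cells on day 6, which overlapped, and at 10, 13 and 12 against 232, 134 and 251 on day 16 (change -4.30, SE 0.33, adjusted p = 6.74e-11, limma). WNT11 was at 412, 570 and 643 against 232, 254 and 556 and then at 206, 292 and 103 against 771, 866 and 718 (-2.82, SE 0.71, adjusted p = 0.00178). FZD4 was at 1194, 919 and 1142 against 2585, 1856 and 2632 and then at 184, 218 and 72 against 2661, 2878 and 2688 (-3.15, SE 0.37, adjusted p = 8.41e-08). In these 3 genes every day 16 CD43+ sample lay below every day 6 CD43+ sample. SFRP1, SFRP2, SFRP5, DKK1, DKK3, FZD10, LGR4, ZNRF3 and WIF1 made up the other falls. SFRP2 went from 35, 36 and 42 against 114, 276 and 80 to 0, 6 and 0 against 141, 56 and 114 (-3.84, SE 0.87, adjusted p = 0.000668). The 2 genes with a higher difference on day 16 are low on one or both days: WNT8A was at 0 in CD43+ and 16, 12 and 6 in CD43- cells on day 6 and at 2, 2 and 4 against 2, 1 and 1 on day 16, and WNT9B was at 8, 4 and 8 against 17, 66 and 20 on day 6. WIF1 (-2.33) lost its call without day 6 CD43- replicate 1 (-1.94) or 3 (-1.94) or day 16 CD43- replicate 1 (-2.03). Median-of-ratios scaling moved the median of all genes by 0.13 and called the same number of members, 16.

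Across the 11 comparisons 42 of the 48 genes were called at least once. The same count was not made over all genes tested, so it cannot be set against a background share. The 6 called in none were AXIN1, FZD2, FZD3, FZD9, LRP5 and RNF43. AXIN1 ranged from 669 to 1666 over the 33 samples, and LRP5 from 739 to 2174. FZD2, a receptor of both branches of the pathway, ranged from 320 to 2134, with its highest mean in day 16 CD43- cells. WNT10A, which was not tested, was listed at 0 in most samples and reached 24 in 1 day 12 CD43- sample.

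In the single undifferentiated sample, SFRP1 stood at 12018, SFRP2 at 6910 and FZD7 at 6121, and DKK4, RSPO3, WNT6 and WNT10A were listed at 0. These values are those of 1 sample and were not compared by a test. For SFRP1 and FZD7, a receptor prominent in stem cells, they were above every sample of the later populations.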

How the data were processed

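Total RNA was sequenced in 34 samples of H1 cells. The study's methods name RiboBio and Annoroad Gene Technology as the places of sequencing. The provider of each sample was not part of the fit, so its part in the differences was not tested. Per the study's methods, reads were mapped by bowtie2 under RSEM against Ensembl transcripts, and the authors used EDASeq to make tag counts equal in GC bias and in distribution. The submitters' processing notes also name STAR 2.7, bcl2fastq and hg38. The deposited values, rounded to whole numbers, are treated as a score, neither raw counts nor CPM. A GC percent per gene was also deposited and was not used. Samples were grouped by their labels. Every sample sums to 17856940 with 1292 genes at 0, so precision rests on the spread of 3 replicates.

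From these values log2(value + 1) was tested with limma 3.58.1 (R 4.3.3; a mean for each population and trended moderated variances) on 33 samples together, over the 19788 genes that reached 10 in 3 samples or more. The calling thresholds were 0.05 for the Benjamini-Hochberg adjusted p and 4 for the fold change. The procedure was tested on simulated data. Values in every sample are given for the 3 largest called rises and falls of a comparison, the R-spondins, LGR5, AXIN2, RNF43, ZNRF3 and genes whose CD43 difference changed, and for further genes chosen after their values were seen. The members, the 4 pathway lists and the 6 marker lists were chosen with earlier results of these data known.

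Replicate numbers counted as pairing samples for day 6 alone, where CD43+ and CD43- samples with the same number deviated together, with correlations of 0.109 to 0.199 across genes, which are not independent. In the other comparisons at least 1 pair was at 0.1 or below. Alternatives were pseudocounts of 0.1 and 10, no filter, a stricter filter of 100, median-of-ratios scaling, a replicate block, fits limited to the pair of populations in question, a 2-fold threshold, and leaving out each replicate. Promoter windows came from RefSeq (GRCh38.p14), which matched 33 members and not AXIN2, DKK2, DKK3, DKK4, FZD10, FZD2, FZD3, FZD6, FZD7, LGR5, LRP6, RSPO2, SFRP1, WNT11, WNT7B and ZNRF3.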

Additional observations from a re-analysis of the deposited data

Results flagged for a closer look

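The CD43 difference changed between day 6 and day 16 in 16 of the 48 genes tested, by an interaction of day and population (limma, adjusted p below 0.05 and a change above 4-fold). Only day 16 cells were also sorted by CD45, so the day and the sort cannot be told apart. The change, the log2 fold change of CD43+ against CD43- cells on day 16 minus that on day 6, was -5.84 for WNT9A, -4.38 for WNT5B, -4.30 for WNT3 and -2.82 for WNT11 among the ligands. It was -4.16 for FZD10 and -3.15 for FZD4 among the Frizzled receptors, and -4.15 for SFRP1, -3.84 for SFRP2, -3.71 for SFRP5 and -2.33 for WIF1 among the antagonists. For DKK3 it was -3.60, for DKK1 -2.73, for LGR4 -2.51 and for ZNRF3 -2.49. The log2 fold change was above 0 on day 6, where none of them was called, and lower in CD43+ cells on day 16 for WNT5B (1.76 and -2.62), SFRP1 (0.89 and -3.26), WNT11 (0.73 and -2.08) and WNT3 (0.32 and -3.98). It moved the other way for WNT9B (4.16) and WNT8A (4.17), both of which have deposited values of at most 8 in these CD43+ samples. FZD10, WIF1 and WNT8A were listed at 0 in all CD43+ samples of at least 1 of these days, so the size of their change depends on the pseudocount, and with a pseudocount of 10 none of the 3 was called. No group has more than 3 samples, so single samples were not tested as outliers.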

How the results depend on the processing

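Counts of called genes kept within 1.5 times of those reported under most settings. With a fold change above 2 they were 28 on day 4 against day 2, 17 and 28 in day 6 CD43- and CD43+ cells against day 4, and 25 for the change of the CD43 difference, and with a pseudocount of 10 only 6 were called from day 6 to day 16 in CD43- cells. Leaving out 1 replicate gave 15 to 18, 17 to 19, 7 to 9 and 15 to 16 up to day 6, 16 to 20, 22 to 25, 30 to 32 and 29 to 31 between CD43+ and CD43- cells, 6 to 11 (6 without day 6 CD43- replicate 3) and 16 to 19 from day 6 to day 16 in CD43- and CD43+ cells, and 15 to 18 for the change. A replicate block over all samples or within the day left the counts at 17, 18, 9, 14, 18, 24, 31, 30, 10, 18 and 16, and in the paired day 6 comparison it changed no member's call. Of 742 further values for 90 changes of named genes, 722 kept the call, 20 lost it and none changed sign. Over all 205 calls of members in the 11 comparisons, leaving out a replicate ended a call in 51 of 1326 values. Most of the losses under other settings came from pseudocounts of 0.1 or 10 in genes with low values. Equal or near-equal top values, such as those of FRZB, limit differences among the highest genes, and the unknown depth leaves no counting limit for a gene listed at 0.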
